A study of Mus musculus with 22 samples.

Results

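The comparison described here is that of BV2 cells with a mutant huntingtin fragment against BV2 cells of both control kinds. BV2 cells are immortalised microglia of mouse origin. Of the 22 samples of the series, 10 are RNA libraries, and the 6 RNA libraries of BV2 cells were used: 2 of Nmu cells against 4 controls, which are 2 of Nwt and 2 of pCDH cells. All 3 kinds are lines made with a lentiviral vector (pCDH-CMV-MCS-EF1-Puro), and no library had a treatment per the labels. Nmu cells carry an N-terminal fragment of human huntingtin cloned from a 128Q plasmid, with a long glutamine tract. Nwt cells carry the matching fragment cloned from a 15Q plasmid, and pCDH cells carry the empty vector. The labels name no separate transductions or cultures of a construct, so the construct and a difference between lines cannot be told apart, and p-values speak only of the spread among these libraries, which may be technical. Each construct has 1 library at 24 h and 1 at a second time, which the labels give as 48 h and the header of the expression table as 6 h. The order of both times is therefore not used.

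Huntingtin is a large scaffold protein, and expansion of its N-terminal glutamine tract causes Huntington's disease. Microglia are the macrophages of the brain. Their enhancers are set up by lineage-determining transcription factors, chiefly PU.1 (gene Spi1) with C/EBP factors. On inflammatory signals, NF-kB enters the nucleus and turns on cytokine genes together with genes for its own inhibitors, such as Nfkbia.

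Values are RPKM (reads per kilobase of transcript, scaled to the size of the library). Implied depth was 10.8 to 14.0 M reads per BV2 library, with 3.61 to 4.69 M reads on gene transcripts and 9362 to 9570 genes at an RPKM of 1 or more. At that depth an RPKM of 1 on a transcript of 2000 bases is 21.5 to 28.0 reads. Of 13 genes that mark microglia and macrophages, 12 reached an RPKM of 1. Of 15 genes of homeostatic microglia, 6 did, and Siglech was at 0 in all 6 libraries. No listed marker of astrocytes, oligodendrocytes, endothelium and fibroblasts or lymphocytes reached an RPKM of 1, and 1 of 8 neuron markers did. The endogenous mouse Htt gene had 3.80 and 3.79 RPKM in Nmu cells, against 3.97 and 3.62 RPKM in pCDH and Nwt cells at 24 h and 2.86 and 2.94 RPKM at the second time. Its common difference was 0.15 ± 0.13 (SE; adjusted p = 0.471), and since the constructs are human sequence it does not show whether the fragments were made.

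Differences are given on the log2(RPKM + 1) scale as Nmu minus controls, which understates the change of genes with low values. A difference common to both times was fitted over all 6 libraries with limma, with time as a term and 3 residual degrees of freedom. Effects at each time, and the difference between these effects, came from a second limma fit with 2 residual degrees of freedom, in which the single Nmu library of a time is assumed to vary like the controls. All adjusted p-values are limma's with Benjamini-Hochberg adjustment over 9963 genes, and a gene is said to rise or fall below 0.05. An exact permutation test of 2 against 4 libraries cannot go below p = 0.0667, so none was used. Only genes that reached 1 RPKM in 2 or more of the 6 libraries were tested, so that a gene admitted by 1 kind of cells only had to differ. Among the genes named, this holds for Cebpd, Clec4n, Csf3r, Dusp1, Ebi3, Fas, Il1rn, Irak3, Lcn2, Pilrb2, Slc7a11 and Vnn3, which reached that level in both Nmu libraries alone. It also holds for Abcd2, Adc, Ankrd37, Cenpf, Cxcr2, F13a1, Hspb7 and Nr4a1, which reached it in controls alone. Counts over the gene lists below include such genes, and this filter can raise the shares that rose or fell. Wherever 2 values of Nmu cells are given, that at 24 h comes before that at the second time.

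The Nmu libraries stood apart from both kinds of control at both times. At 24 h the SD over genes of the difference was 0.66 for Nmu minus the control mean, against 0.19 for pCDH minus Nwt. At the second time it was 0.48 and 0.17. The common effect passed for 875 genes (8.78%): 419 (4.21% of those tested) rose and 456 (4.58%) fell. Every one of the 875 had the same sign at both times. The fit itself favours such genes, because an effect that differs between times adds to its residual spread. The median size of the fold was 1.79 for genes that rose and 1.80 for genes that fell. A change of at least 2-fold was seen in 150 genes that rose (1.51%) and 145 that fell (1.46%). Without a filter on low values, 128 genes rose and 62 fell, and of the 12 genes with the largest change per direction 5 still rose and 1 still fell. Both Nmu libraries lay above all 4 controls for 1239 genes (12.4%) and below all of them for 1482 genes (14.9%). The counts moved with the choice and the number of controls. Fewer libraries also leave fewer residual degrees of freedom, and the part of that in the lower counts was not tested. With 1 control library left out (pCDH or Nwt, 24 h or second time), 47 to 71 genes rose and 20 to 37 fell. With both pCDH libraries as the only controls 158 rose and 152 fell, and with both Nwt libraries 110 and 121. Whichever control was left out, 46 genes still rose and 19 still fell. Leaving out an Nmu library turns the common effect into that of the other time, with 1272 genes higher and 1972 lower at the second time alone and 2534 higher and 2179 lower at 24 h alone.

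Effects at a single time were larger in number at 24 h. There 2534 genes (25.4%) rose and 2179 (21.9%) fell, against 1272 (12.8%) and 1972 (19.8%) at the second time. The difference between both effects passed the test for 3823 genes (38.4%), being higher at the second time for 1592 (16%) and lower for 2231 (22.4%). Genes were put into classes by these tests. In the shared classes a gene passed at both times with a log2 difference of at least 1 in the same direction, which held for 86 genes that rose (0.863%) and 60 that fell (0.602%). In the classes of 1 time only, a gene passed at that time with a difference of at least 1, was under 0.5 in size at the other time, and passed the test of the difference. These classes hold 243 genes that rose at 24 h only (2.44%), 322 that fell at 24 h only (3.23%), 50 that rose at the second time only (0.502%) and 143 that fell at the second time only (1.44%). Of the genes that passed at both times, 1258 changed in the same direction and 491 in opposite directions. In 7 genes of opposite direction the size was at least 1 at both times: 3 were higher at 24 h (0.0301%) and 4 were lower at 24 h (0.0401%).

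**Figure D1:**
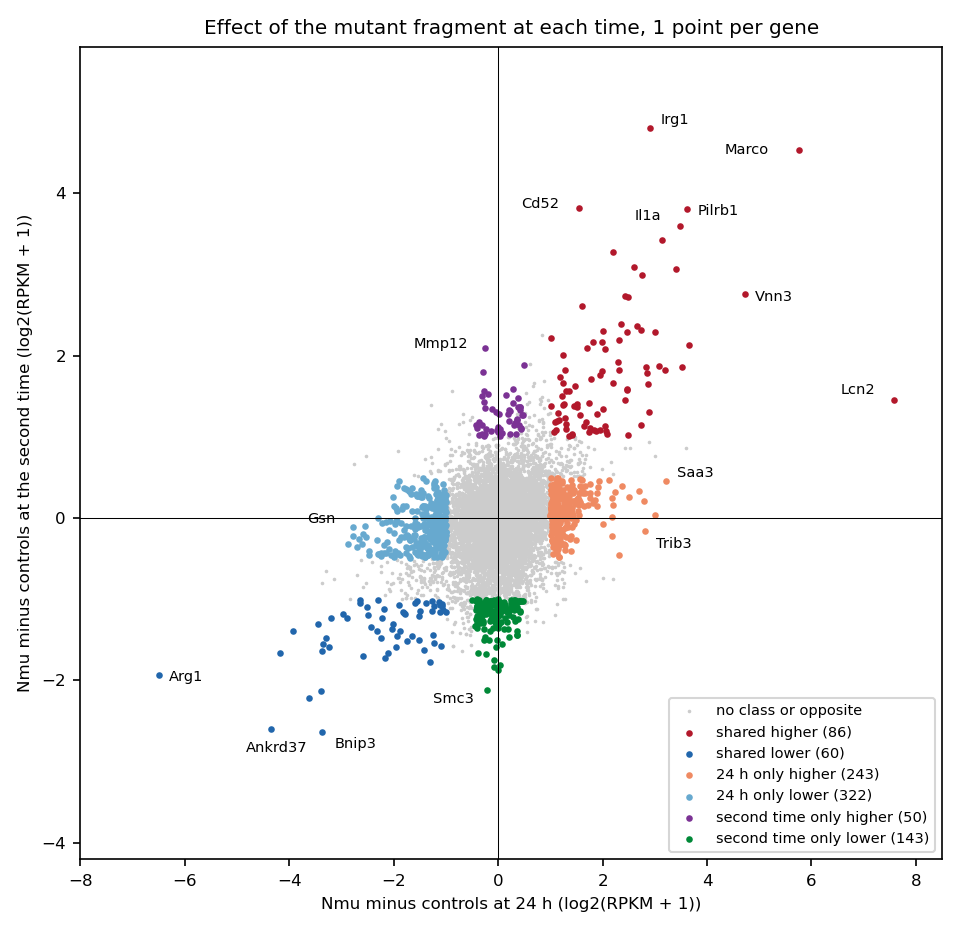
Each point is 1 of 9963 genes, with Nmu minus controls at 24 h on the x axis and at the second time on the y axis, both on the log2(RPKM + 1) scale. Coloured points are the 6 classes, with 86 and 60 genes in the shared ones, and Marco and Irg1 lie at the upper right and Arg1 at the lower left.

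Genes of the NF-kB pathway and of inflammatory cytokines were among those that rose at both times. Of 25 NF-kB genes tested, 9 rose and 1 fell (36.0% against 4.21% of all genes, and 4.00% against 4.58%), with a median common difference of 0.40 against -0.0039 over all genes. Of 17 cytokine, chemokine and related genes, 10 rose and none fell, with a median of 0.99. The counts of these lists include Ebi3 and Irak3, which were admitted to the test by their Nmu values alone and so had to differ. Il1a, which encodes interleukin 1α, had 66.4 and 34.3 RPKM in Nmu cells, against 4.49 and 5.60 RPKM in pCDH and Nwt cells at 24 h and 1.78 and 2.09 RPKM at the second time. Its transcript lies at chr2:129125346-129135708 (mm9). The Nmu values lay far above every control, and the common difference was 3.54 ± 0.13 (SE; adjusted p = 0.000273). Ebi3, a subunit of interleukin 27, had 14.1 and 9.82 RPKM in Nmu cells, against 0.386 and 0.457 RPKM in pCDH and Nwt cells at 24 h and 0.307 and 0.271 RPKM at the second time, with a common difference of 3.24 ± 0.13 (SE; adjusted p = 0.000273). The controls had only 4 to 7 implied reads for Ebi3, against 225 and 123 in Nmu cells. Ccl3 had 208 and 159.8 RPKM in Nmu cells, against 26 to 45.5 RPKM in the controls (difference 2.35 ± 0.23 SE, adjusted p = 0.00642). Ccl4 had 58.8 and 59.7 RPKM in Nmu cells, against 6.45 to 13.6 RPKM in the controls (difference 2.64 ± 0.21 SE, adjusted p = 0.00299). Tnf and Il1b, chosen after their values were seen, differed by 2.26 and 2.06 (adjusted p = 0.0022 and 0.00115).

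Inhibitors and other regulators of the same pathway rose with the cytokines. Nfkbia, which encodes the inhibitor that holds NF-kB in the cytoplasm, had 14.1 and 21.3 RPKM in Nmu cells, against 2.00 and 1.93 RPKM in pCDH and Nwt cells at 24 h and 3.18 and 3.37 RPKM at the second time. The difference was 2.36 ± 0.11 (SE; adjusted p = 0.000607), and it was nearly the same at both times, 2.35 for 24 h and 2.38 for the second time. Nfkbiz, a nuclear regulator of the same family, had 26.7 and 7.36 RPKM in Nmu cells, against 1.17 and 1.24 RPKM in pCDH and Nwt cells at 24 h and 0.909 and 0.918 RPKM at the second time. All controls were near 1 RPKM, and the effect of 3.65 at 24 h was larger than that of 2.13 at the second time, a difference of -1.52 (adjusted p = 0.000452). Tnip1, a partner of the A20 deubiquitinase, had 16.4 and 15.1 RPKM in Nmu cells, against 2.48 to 3.47 RPKM in the controls (difference 2.08 ± 0.12 SE, adjusted p = 0.00106). Irak3, a brake on signals from Toll-like receptors, had 6.66 and 5.50 RPKM in Nmu cells, against 0.540 to 0.908 RPKM in the controls (difference 2.07 ± 0.15 SE, adjusted p = 0.002). All of the calls for Il1a, Ebi3, Ccl3, Ccl4, Tnf, Il1b, Nfkbia, Tnip1 and Irak3 held with any 1 control left out. That for Nfkbiz had an adjusted p of 0.0314 to 0.0545 then.

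The promoters of Nfkbia and Ebi3 are shown because both genes rose and both stretches hold a match to an NF-kB motif (GGGA or GGGG, 2 free bases, T, 1 free base and CC, on either strand). Sequences are the 250 bases before the start of the gene, 5′ to 3′ on its strand, from RefSeq (GRCm38.p6), with the matches in capitals. That of Nfkbia is at chr12:55492648-55492897 on the minus strand and that of Ebi3 at chr17:55952373-55952622 on the plus strand.
Nfkbia: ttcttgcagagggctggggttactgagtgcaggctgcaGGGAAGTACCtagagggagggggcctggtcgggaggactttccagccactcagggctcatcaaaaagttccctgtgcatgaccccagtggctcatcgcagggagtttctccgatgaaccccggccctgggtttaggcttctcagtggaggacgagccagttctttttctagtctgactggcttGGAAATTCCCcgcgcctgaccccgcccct
Ebi3: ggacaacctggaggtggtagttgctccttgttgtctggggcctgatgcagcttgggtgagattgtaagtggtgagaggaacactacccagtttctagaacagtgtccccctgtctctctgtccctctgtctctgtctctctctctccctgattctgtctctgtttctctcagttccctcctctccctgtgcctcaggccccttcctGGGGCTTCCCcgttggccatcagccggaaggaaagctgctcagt
The first bases of the 2 separate matches of Nfkbia lie 212 and 29 bases before the start, and that of Ebi3 44 bases before it. Such a match was found in 14.1% of 64 shared higher genes with a promoter, against 8.5% of all tested genes with one.

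The largest increase in the common effect was in a surface receptor. Of 25 paired, lectin and scavenger receptor genes tested, 11 rose (44.0%) and 2 fell (8.00%), against 4.21% and 4.58% of all genes. The count includes Pilrb2 and Clec4n, which were admitted to the test by their Nmu values alone and so had to differ. Marco, a scavenger receptor for bacteria and particles, had 97.0 and 59.0 RPKM in Nmu cells, against 0.640 and 0.966 RPKM in pCDH and Nwt cells at 24 h and 1.05 and 2.29 RPKM at the second time. That is 2620 and 1247 implied reads in Nmu cells, against 14 to 57 in the controls. The common difference of 5.15 ± 0.32 (SE; adjusted p = 0.00107) was the largest among genes that rose, and the effect was 5.77 for 24 h and 4.53 for the second time. Pilrb1, an activating paired immunoglobulin-like receptor, had 20.9 and 40.5 RPKM in Nmu cells, against 0.799 and 0.750 RPKM in pCDH and Nwt cells at 24 h and 1.97 and 1.95 RPKM at the second time (difference 3.72 ± 0.12 SE, adjusted p = 0.00022). Its paralog Pilrb2 had 10.4 and 19.6 RPKM in Nmu cells, against 0.253 to 0.951 RPKM in the controls (difference 3.28 ± 0.13 SE, adjusted p = 0.000273). Pilra, the inhibitory member of the pair, had 14.8 and 31.0 RPKM in Nmu cells, against 1.40 and 1.80 RPKM in pCDH and Nwt cells at 24 h and 2.27 and 3.31 RPKM at the second time (difference 2.85 ± 0.18 SE, adjusted p = 0.00113). How reads shared by these near-identical genes were counted was not stated in any label or header, so their separate values are uncertain. Clec4n, which encodes Dectin-2, a lectin that binds fungal mannans, had 7.89 and 10.1 RPKM in Nmu cells, against 0.237 and 0.401 RPKM in pCDH and Nwt cells at 24 h and 0.251 and 0.556 RPKM at the second time (difference 2.88 ± 0.15 SE, adjusted p = 0.000901). The receptor genes that fell were Clec10a and Cd36, with differences of -2.08 and -1.08 (adjusted p = 0.0283 and 0.0144, and 0.0705 to 0.119 and 0.0512 to 0.0843 with 1 control left out).

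The promoters of Marco, Pilrb1 and Pilrb2 are shown because these genes had the largest increases among the receptors. In Marco the capitals mark a PU.1 core (GAGGAAG, either strand). In Pilrb1 and Pilrb2 they mark a C/EBP motif (TTGCNNAA, either strand). All are 250 bases before the start on the minus strand (RefSeq, GRCm38.p6), at chr1:120505025-120505274 for Marco, chr5:137858050-137858299 for Pilrb1 and chr5:137871759-137872008 for Pilrb2.
Marco: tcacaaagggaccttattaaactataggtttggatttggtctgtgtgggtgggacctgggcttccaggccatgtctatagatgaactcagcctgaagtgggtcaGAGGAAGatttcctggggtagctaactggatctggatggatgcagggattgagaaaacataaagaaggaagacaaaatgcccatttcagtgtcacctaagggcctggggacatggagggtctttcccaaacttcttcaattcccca
Pilrb1: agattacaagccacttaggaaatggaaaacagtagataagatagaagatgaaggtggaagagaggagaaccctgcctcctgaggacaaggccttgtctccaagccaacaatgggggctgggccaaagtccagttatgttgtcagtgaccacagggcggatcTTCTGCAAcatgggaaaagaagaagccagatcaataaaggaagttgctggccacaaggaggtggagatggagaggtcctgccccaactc
Pilrb2: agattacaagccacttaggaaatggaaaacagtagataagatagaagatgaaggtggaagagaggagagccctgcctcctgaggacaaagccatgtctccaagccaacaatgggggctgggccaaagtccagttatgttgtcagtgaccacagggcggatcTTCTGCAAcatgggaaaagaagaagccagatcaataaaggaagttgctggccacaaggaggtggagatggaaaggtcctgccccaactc
The match in Marco begins 146 bases before the start. Those in Pilrb1 and Pilrb2 begin 89 bases before it in both genes, whose promoters are the same at 246 of 250 positions. A PU.1 core was found in 25.0% of the 64 shared higher genes with a promoter, against 11.1% of all tested genes with one, and a C/EBP motif in 20.3% against 7.4%. The PU.1 core was also found in 33.3% of 33 genes that rose at the second time only, and in 14.6% of 48 shared lower genes. Pilra holds the same C/EBP match as Pilrb1 and Pilrb2 in similar sequence, so the matches of these related genes are not separate cases.

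Toll-like receptors and their coreceptors moved in both directions. Of 13 tested, 4 rose (30.8%) and 3 fell (23.1%), against 4.21% and 4.58% of all genes. Tlr2, a receptor for bacterial lipoproteins, had 22.2 and 30.2 RPKM in Nmu cells, against 3.56 and 2.88 RPKM in pCDH and Nwt cells at 24 h and 4.91 and 5.93 RPKM at the second time (difference 2.37 ± 0.14 SE, adjusted p = 0.00106). Cd14, a coreceptor for lipopolysaccharide, had 35.1 and 29.0 RPKM in Nmu cells, against 6.87 and 7.27 RPKM in pCDH and Nwt cells at 24 h and 16.7 and 18.7 RPKM at the second time (difference 1.42 ± 0.31 SE, adjusted p = 0.0425). Tlr4, the receptor for lipopolysaccharide, had 7.05 and 5.30 RPKM in Nmu cells, against 13.5 and 14.4 RPKM in pCDH and Nwt cells at 24 h and 15.0 and 16.3 RPKM at the second time and fell (difference -1.15 ± 0.15 SE, adjusted p = 0.0129). Tlr7, which detects single-stranded RNA in endosomes, had 1.71 and 5.44 RPKM in Nmu cells, against 9.49 and 8.87 RPKM in pCDH and Nwt cells at 24 h and 9.44 and 9.96 RPKM at the second time and fell (difference -1.32 ± 0.26 SE, adjusted p = 0.0317). The Nmu values of all 4 genes, which were named for the size of their change, lay outside the range of the controls. Over all genes tested, both Nmu values lay above all controls for 12.4% and below them for 14.9%. The call for Tlr2 held with any 1 control left out, whereas the adjusted p was 0.0912 to 0.155 for Cd14, 0.0537 to 0.0782 for Tlr4 and 0.0736 to 0.13 for Tlr7.

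Irg1, Vnn3, Cd52 and some complement genes rose as well. Irg1, which makes the antibacterial metabolite itaconate, had 25.7 and 68.0 RPKM in Nmu cells, against 2.27 and 2.88 RPKM in pCDH and Nwt cells at 24 h and 1.33 and 1.62 RPKM at the second time. Its transcript lies at chr14:103446229-103455790 (mm9). The common difference was 3.85 ± 0.40 (SE; adjusted p = 0.00661), and the effect was larger at the second time by 1.90 (adjusted p = 0.00047). Vnn3, a pantetheinase family gene, had 32.6 and 6.29 RPKM in Nmu cells, against 0.299 and 0.253 RPKM in pCDH and Nwt cells at 24 h and 0.119 and 0.0440 RPKM at the second time. It went the other way, with effects of 4.72 for 24 h and 2.75 for the second time. The controls had 1 to 6 implied reads for Vnn3, against 808 and 122 in Nmu cells. Of 12 complement genes tested, 5 rose (41.7%) and none fell, against 4.21% and 4.58% of all genes. C3, the central complement component, had 35.2 and 23.1 RPKM in Nmu cells, against 6.75 and 6.94 RPKM in pCDH and Nwt cells at 24 h and 1.44 and 1.55 RPKM at the second time (difference 2.74 ± 0.24 SE, adjusted p = 0.00406). C3ar1, the receptor for a fragment of C3, had 25.8 and 27.1 RPKM in Nmu cells, against 9.48 to 12.5 RPKM in the controls (difference 1.23 ± 0.13 SE, adjusted p = 0.00661). C1qb, which encodes a chain of the first complement component, had 21.6 and 61.0 RPKM in Nmu cells, against 15.6 and 11.1 RPKM in pCDH and Nwt cells at 24 h and 17.7 and 20.6 RPKM at the second time (difference 1.15 ± 0.25 SE, adjusted p = 0.0401). Cd52, a small surface glycoprotein of leukocytes, had 30.2 and 105 RPKM in Nmu cells, against 9.55 and 9.74 RPKM in pCDH and Nwt cells at 24 h and 6.44 and 6.64 RPKM at the second time (difference 2.69 ± 0.46 SE, adjusted p = 0.0228). The calls for Irg1, Vnn3 and C3 held with any 1 control left out. The adjusted p was 0.0314 to 0.0545 for C3ar1, 0.058 to 0.152 for C1qb and 0.0678 to 0.0867 for Cd52.

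Some genes of antigen presentation, the lysosome and the phagocyte oxidase rose too. Of 17 genes of MHC class I presentation 5 rose (29.4%) and none fell, against 4.21% and 4.58% of all genes. H2-K1 had 154 and 81.0 RPKM in Nmu cells, against 54.5 and 56.8 RPKM in pCDH and Nwt cells at 24 h and 29.4 and 31.7 RPKM at the second time (difference 1.42 ± 0.11 SE, adjusted p = 0.00299). H2-D1 had 207 and 111 RPKM in Nmu cells, against 79.0 and 89.4 RPKM in pCDH and Nwt cells at 24 h and 49.2 and 53.7 RPKM at the second time (difference 1.19 ± 0.13 SE, adjusted p = 0.00737, and 0.039 to 0.0555 as adjusted p with 1 control left out). Values of these related class I genes are uncertain where they share reads. Of 27 lysosome and cathepsin genes 5 rose (18.5%) and none fell, against the same 4.21% and 4.58%. Lyz2, which encodes lysozyme, had 1069.9 and 1398 RPKM in Nmu cells, against 592 and 622 RPKM in pCDH and Nwt cells at 24 h and 470.4 and 566 RPKM at the second time (difference 1.13 ± 0.18 SE, adjusted p = 0.0191). Of 7 genes of the phagocyte NADPH oxidase, 5 rose at the second time, where 12.8% of all genes rose, and 1 rose in the common effect (14.3%). That gene was Cyba, the p22phox subunit, with 179.6 and 130.2 RPKM in Nmu cells, against 97.7 and 101 RPKM in pCDH and Nwt cells at 24 h and 75.0 and 73.7 RPKM at the second time (difference 0.83 ± 0.11 SE, adjusted p = 0.0135). The adjusted p with 1 control left out was 0.0599 to 0.0847 for Lyz2 and 0.0604 to 0.0852 for Cyba.

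**Figure D2:**
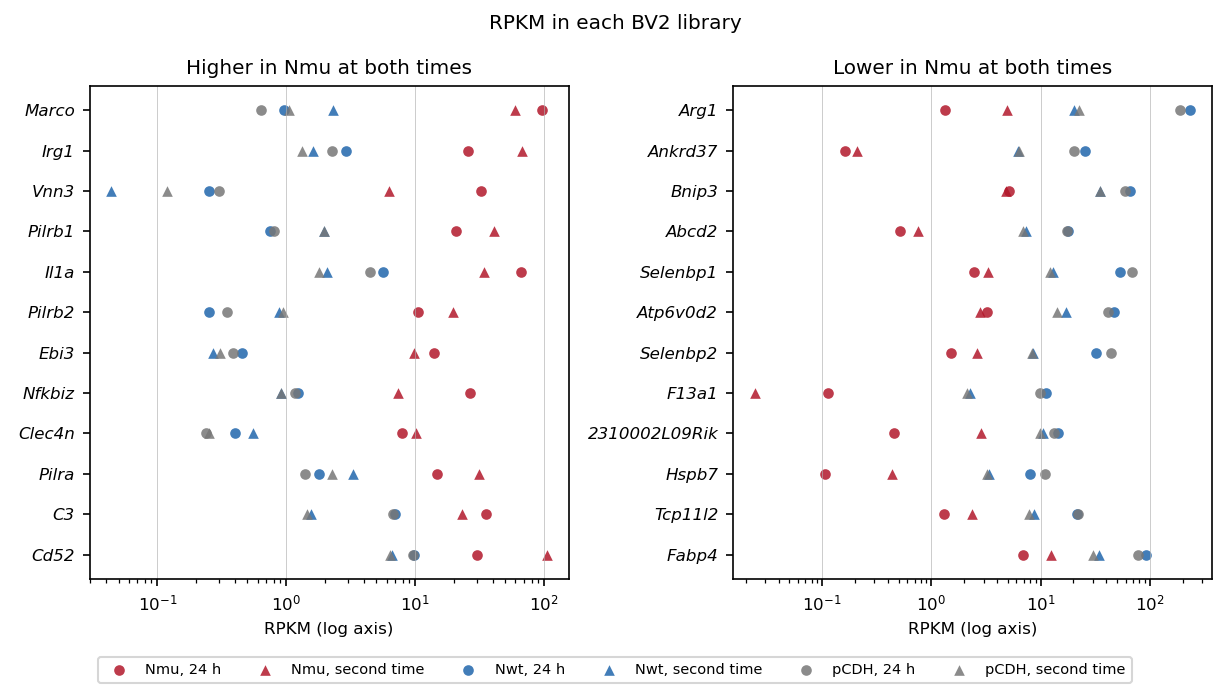
RPKM on a log axis in each of the 6 BV2 libraries for the 12 genes with the largest increase (left) and decrease (right) in the common effect, with Nmu in red, Nwt in blue and pCDH in grey, circles for 24 h and triangles for the second time. For all 24 genes both Nmu points lie outside the range of the 4 controls, which their choice by change in the same libraries favours. Over all genes tested, both Nmu values lay above all 4 controls for 12.4% and below them for 14.9%.

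Genes of alternative activation and of the hypoxia response were among those that fell. Arg1, which makes arginase, a classic gene of alternatively activated macrophages, had 1.34 and 4.88 RPKM in Nmu cells, against 189.7 and 234 RPKM in pCDH and Nwt cells at 24 h and 22.5 and 20.3 RPKM at the second time. Its transcript lies at chr10:24635013-24647276 (mm9). Both Nmu values lay below every control, and the controls themselves were far higher at 24 h than at the second time. The effect was -6.50 for 24 h and -1.93 for the second time, a difference between times of 4.57 (adjusted p = 3.32e-05). The common difference of -4.21 ± 0.91 (SE; adjusted p = 0.0401) had an adjusted p of 0.0888 to 0.142 with 1 control left out. Of 12 genes of alternative activation, 3 fell (25.0%) and 1 rose (8.33%), against 4.58% and 4.21% of all genes. F13a1, a coagulation factor chain, had 0.113 and 0.0240 RPKM in Nmu cells, against 9.97 and 11.2 RPKM in pCDH and Nwt cells at 24 h and 2.13 and 2.27 RPKM at the second time (difference -2.51 ± 0.36 SE, adjusted p = 0.0157, and 0.0525 to 0.0787 as adjusted p with 1 control left out). The gene that rose was Il1rn, the interleukin 1 receptor antagonist, with 9.39 and 3.08 RPKM in Nmu cells, against 0.327 to 0.779 RPKM in the controls, a gene admitted to the test by its Nmu values alone (difference 2.09 ± 0.34 SE, adjusted p = 0.0204, and 0.0536 to 0.101 as adjusted p then). Mgl2, a lectin of such macrophages and close paralog of Clec10a, with which it may share reads, had 1.66 and 4.71 RPKM in Nmu cells, against 28.4 and 25.0 RPKM in pCDH and Nwt cells at 24 h and 9.88 and 8.16 RPKM at the second time, with a difference between times of 2.57 (adjusted p = 0.000255).

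Of 20 hypoxia targets tested, 8 fell (40.0%) and 1 rose (5.00%), against 4.58% and 4.21% of all genes. Their median common difference was -0.58. At 24 h 14 of the 20 fell, and so did 14 at the second time, against 21.9% and 19.8% of all genes. Bnip3, a mitophagy receptor that hypoxia-inducible factor turns on, had 5.17 and 4.78 RPKM in Nmu cells, against 59.5 and 66.5 RPKM in pCDH and Nwt cells at 24 h and 35.1 and 34.6 RPKM at the second time (difference -3.0 ± 0.19 SE, adjusted p = 0.00107). Ankrd37, another target of that factor, had 0.162 and 0.207 RPKM in Nmu cells, against 20.1 and 25.6 RPKM in pCDH and Nwt cells at 24 h and 6.37 and 6.25 RPKM at the second time (difference -3.47 ± 0.37 SE, adjusted p = 0.00737). In Nmu cells it had 2 implied reads per library, against 71 to 303 in the controls. Ccng2, an atypical cyclin, had 1.23 and 1.05 RPKM in Nmu cells, against 5.83 and 7.15 RPKM in pCDH and Nwt cells at 24 h and 4.88 and 4.83 RPKM at the second time (difference -1.63 ± 0.13 SE, adjusted p = 0.00318). Those 3 calls held with any 1 control left out. Selenbp1, a selenium-binding protein on the same list, had 2.44 and 3.28 RPKM in Nmu cells, against 69.3 and 53.6 RPKM in pCDH and Nwt cells at 24 h and 12.1 and 13.1 RPKM at the second time (difference -2.92 ± 0.51 SE, adjusted p = 0.0252, and 0.0599 to 0.111 as adjusted p with 1 control left out). The hypoxia target that rose was Car12, a membrane carbonic anhydrase, with a difference of 0.67 (adjusted p = 0.0226, and 0.0833 to 0.116 with 1 control left out). Slc2a1, a glucose transporter and member chosen after its values were seen, had 13.2 and 13.1 RPKM in Nmu cells, against 21.7 and 17.0 RPKM in pCDH and Nwt cells at 24 h and 17.2 and 19.1 RPKM at the second time, a difference of -0.47 ± 0.14 (SE; adjusted p = 0.0854) that did not pass.

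The promoters of Bnip3 and Ankrd37 are shown because these genes fell most among the hypoxia targets and both stretches hold the core of a hypoxia response element (ACGTG, either strand, in capitals). Both are 250 bases before the start on the minus strand (RefSeq, GRCm38.p6), at chr7:138909507-138909756 for Bnip3 and chr8:45999851-46000100 for Ankrd37.
Bnip3: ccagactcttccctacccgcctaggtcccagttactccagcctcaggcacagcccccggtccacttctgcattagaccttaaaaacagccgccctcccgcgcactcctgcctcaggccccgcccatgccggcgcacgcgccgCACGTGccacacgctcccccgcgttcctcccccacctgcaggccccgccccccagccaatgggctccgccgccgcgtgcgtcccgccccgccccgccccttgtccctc
Ankrd37: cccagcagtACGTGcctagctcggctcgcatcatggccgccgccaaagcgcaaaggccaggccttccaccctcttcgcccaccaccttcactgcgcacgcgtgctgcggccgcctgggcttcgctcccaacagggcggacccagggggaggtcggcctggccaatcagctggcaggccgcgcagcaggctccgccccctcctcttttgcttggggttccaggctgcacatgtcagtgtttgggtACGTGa
In Bnip3 a match on each strand overlaps the other, beginning 108 and 107 bases before the start. In Ankrd37 separate matches begin 241 and 6 bases before it. The core was found in 35.4% of 48 shared lower genes with a promoter, in 12.5% of 64 shared higher genes, and in 23.3% of all tested genes with one.

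The other genes with the largest decreases have several functions. Abcd2, a peroxisomal fatty acid transporter, had 0.514 and 0.756 RPKM in Nmu cells, against 17.5 and 17.8 RPKM in pCDH and Nwt cells at 24 h and 6.96 and 7.37 RPKM at the second time (difference -2.92 ± 0.30 SE, adjusted p = 0.00661). Fabp4, a fatty acid binding protein of macrophages and adipocytes, had 6.88 and 12.4 RPKM in Nmu cells, against 78.7 and 91.5 RPKM in pCDH and Nwt cells at 24 h and 30.2 and 34.6 RPKM at the second time (difference -2.38 ± 0.44 SE, adjusted p = 0.0283). Atp6v0d2, part of the proton pump that acidifies lysosomes, had 3.24 and 2.79 RPKM in Nmu cells, against 41.2 and 46.6 RPKM in pCDH and Nwt cells at 24 h and 14.2 and 17.2 RPKM at the second time (difference -2.77 ± 0.28 SE, adjusted p = 0.00661). The subunits of that pump differed in direction: of 17 tested, 4 rose (23.5%) and 2 fell (11.8%), against 4.21% and 4.58% of all genes. Atp6v0c had 387 and 426 RPKM in Nmu cells, against 215 to 278 RPKM in the controls (difference 0.69 ± 0.14 SE, adjusted p = 0.0361). Selenbp2, a close paralog of Selenbp1 whose reads may be shared with it, had 1.52 and 2.60 RPKM in Nmu cells, against 8.32 to 43.8 RPKM in the controls (difference -2.66 ± 0.52 SE, adjusted p = 0.0323). Hspb7, a small heat shock protein, had 0.105 and 0.437 RPKM in Nmu cells, against 3.23 to 10.9 RPKM in the controls (difference -2.41 ± 0.36 SE, adjusted p = 0.0164). Tcp11l2 had 1.31 and 2.33 RPKM in Nmu cells, against 7.89 to 21.9 RPKM in the controls (difference -2.39 ± 0.37 SE, adjusted p = 0.0192), and 2310002L09Rik, with no function named here, had 0.454 and 2.85 RPKM in Nmu cells, against 9.97 to 14.5 RPKM in the controls (difference -2.45 ± 0.37 SE, adjusted p = 0.018). The calls for Abcd2 and Atp6v0d2 held with any 1 control left out. For the others the adjusted p was then 0.0626 to 0.112 (Fabp4), 0.0728 to 0.129 (Selenbp2), 0.0536 to 0.0867 (Hspb7), 0.0536 to 0.0954 (Tcp11l2), 0.0536 to 0.0852 (2310002L09Rik) and 0.0971 to 0.14 (Atp6v0c). Of 20 integrin and matrix protease genes, 5 fell (25.0%) and 1 rose (5.00%), against 4.58% and 4.21% of all genes. Itgav, the αv integrin, had 3.57 and 3.16 RPKM in Nmu cells, against 9.41 to 13.9 RPKM in the controls (difference -1.54 ± 0.13 SE, adjusted p = 0.00406), a call that held with any 1 control left out. Mmp14, a membrane-bound matrix protease, had 3.94 and 5.43 RPKM in Nmu cells, against 14.1 to 22.7 RPKM in the controls (difference -1.73 ± 0.22 SE, adjusted p = 0.0119, and 0.0491 to 0.0759 as adjusted p then). Plau, which encodes urokinase, had 7.66 and 23.7 RPKM in Nmu cells, against 53.3 and 61.8 RPKM in pCDH and Nwt cells at 24 h and 14.7 and 14.5 RPKM at the second time, with a difference between times of 3.42 (adjusted p = 7.45e-05).

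Of 25 transcription factors of myeloid cells tested, 4 rose and 4 fell (16.0% each), against 4.21% and 4.58% of all genes. Those that rose were Spi1, Cebpb, Cebpd and Ets2. Spi1 encodes PU.1 and lies at chr2:90936954-90955913 (mm9). It had 47.8 and 70.2 RPKM in Nmu cells, against 26.9 and 25.8 RPKM in pCDH and Nwt cells at 24 h and 28.7 and 30.3 RPKM at the second time. Both Nmu values lay above every control, and the difference was 1.03 ± 0.14 (SE; adjusted p = 0.0126). Cebpb had 149 and 52.4 RPKM in Nmu cells, against 51.6 and 52.4 RPKM in pCDH and Nwt cells at 24 h and 37.1 and 32.9 RPKM at the second time (difference 1.04 ± 0.22 SE, adjusted p = 0.0377), and its value in Nmu cells at the second time lay at the level of the controls of 24 h. Cebpd had 10.4 and 4.90 RPKM in Nmu cells, against 0.637 and 0.505 RPKM in pCDH and Nwt cells at 24 h and 0.696 and 0.734 RPKM at the second time (difference 2.32 ± 0.24 SE, adjusted p = 0.00683). Cebpa had 2.68 and 4.13 RPKM in Nmu cells, against 5.63 and 5.74 RPKM in pCDH and Nwt cells at 24 h and 5.88 and 5.22 RPKM at the second time, a difference of -0.61 ± 0.15 (SE; adjusted p = 0.059) that did not pass. Irf8, a partner of PU.1, had 8.38 and 13.6 RPKM in Nmu cells, against 16.2 and 14.5 RPKM in pCDH and Nwt cells at 24 h and 13.8 and 14.7 RPKM at the second time (difference -0.43 ± 0.19 SE, adjusted p = 0.186), with the value of 24 h well below the controls and that of the second time close to them. Ets2, an ETS family factor, had 43.8 and 13.9 RPKM in Nmu cells, against 2.79 and 3.06 RPKM in pCDH and Nwt cells at 24 h and 3.10 and 3.12 RPKM at the second time (difference 2.69 ± 0.34 SE, adjusted p = 0.0118). The factors that fell included Mef2c, with 0.806 and 2.25 RPKM in Nmu cells, against 5.71 to 8.29 RPKM in the controls (difference -1.69 ± 0.15 SE, adjusted p = 0.00417), and Mitf, a regulator of lysosome genes, with 1.83 and 1.61 RPKM in Nmu cells, against 4.68 to 5.95 RPKM in the controls (difference -1.21 ± 0.11 SE, adjusted p = 0.00508). The calls for Cebpd, Mef2c and Mitf held with any 1 control left out. The adjusted p was 0.0554 to 0.0785 for Spi1, 0.0761 to 0.148 for Cebpb and 0.0432 to 0.0702 for Ets2.

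Of 19 immediate-early and AP-1 genes tested, which answer signals quickly, 4 rose and 3 fell in the common effect. These are 21.1% and 15.8%, against 4.21% and 4.58% of all genes. Dusp1, a phosphatase that switches off MAP kinases, had 10.1 and 2.88 RPKM in Nmu cells, against 0.511 and 0.824 RPKM in pCDH and Nwt cells at 24 h and 0.664 and 0.856 RPKM at the second time (difference 1.94 ± 0.34 SE, adjusted p = 0.0252, and 0.0687 to 0.112 as adjusted p with 1 control left out). Nr4a1, a nuclear receptor, had 0.236 and 0.678 RPKM in Nmu cells, against 2.77 and 2.28 RPKM in pCDH and Nwt cells at 24 h and 3.96 and 3.52 RPKM at the second time and fell (difference -1.50 ± 0.12 SE, adjusted p = 0.00329). Cd40, a costimulatory receptor, had 9.92 and 3.92 RPKM in Nmu cells, against 2.33 and 2.49 RPKM in pCDH and Nwt cells at 24 h and 0.90 and 1.49 RPKM at the second time (difference 1.43 ± 0.18 SE, adjusted p = 0.0104, and 0.0269 to 0.0707 as adjusted p then). Csf3r, the receptor for granulocyte colony-stimulating factor and 1 of the granulocyte markers, had 2.15 and 1.30 RPKM in Nmu cells, against 0.782 and 0.852 RPKM in pCDH and Nwt cells at 24 h and 0.340 and 0.465 RPKM at the second time (difference 0.75 ± 0.12 SE, adjusted p = 0.0181, and 0.0775 to 0.104 as adjusted p then).

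Genes of the integrated stress response rose chiefly at 24 h. This response slows translation and turns on targets of the factor ATF4. Of 21 genes tested, 19 rose and 1 fell at 24 h, against 25.4% and 21.9% of all genes. At the second time 3 rose and 1 fell, against 12.8% and 19.8% of all genes. Their median was 1.21 for 24 h and 0.15 for the second time, and the difference between times was below 0 and passed the test for 16 of 21. Ddit3, which encodes CHOP, had 146 and 5.48 RPKM in Nmu cells, against 18.0 and 22.8 RPKM in pCDH and Nwt cells at 24 h and 4.79 and 4.47 RPKM at the second time. The Nmu library of 24 h stood far above the other 5, and the difference between times was -2.59 (adjusted p = 0.000267). Trib3, a pseudokinase downstream of ATF4, had 35.9 and 2.41 RPKM in Nmu cells, against 3.65 and 4.90 RPKM in pCDH and Nwt cells at 24 h and 3.07 and 2.58 RPKM at the second time, with a difference between times of -2.98 (adjusted p = 0.000215). Ppp1r15a, a phosphatase subunit that reverses the response, had 58.0 and 3.83 RPKM in Nmu cells, against 6.84 and 9.50 RPKM in pCDH and Nwt cells at 24 h and 2.67 and 2.98 RPKM at the second time, with a difference between times of -2.36 (adjusted p = 0.000403). Atf3 is the exception among the leading members, since it rose at both times with 112 and 25.9 RPKM in Nmu cells, against 30.9 and 36.3 RPKM in pCDH and Nwt cells at 24 h and 13.8 and 13.6 RPKM at the second time (difference 1.29 ± 0.21 SE, adjusted p = 0.0197, and 0.0589 to 0.102 as adjusted p with 1 control left out). These and all other effects at 24 h alone rest on 1 Nmu library.

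Saa3, Saa1 and Lcn2 were also highest in the Nmu library of 24 h. Saa3 had 214 and 38.7 RPKM in Nmu cells, against 17.6 and 27.6 RPKM in pCDH and Nwt cells at 24 h and 26.5 and 29.8 RPKM at the second time, and the effect was 3.22 for 24 h and 0.45 for the second time. Saa1 had 14.7 and 1.39 RPKM in Nmu cells, against 1.05 and 0.884 RPKM in pCDH and Nwt cells at 24 h and 1.66 and 1.05 RPKM at the second time, with effects of 3.00 for 24 h and 0.03 for the second time. Both encode serum amyloid A proteins. Lcn2, which encodes lipocalin 2, an iron-sequestering protein of innate immunity, had 219 and 1.98 RPKM in Nmu cells, against 0.106 and 0.180 RPKM in pCDH and Nwt cells at 24 h and 0.0840 and 0.0930 RPKM at the second time. Those are 2538 and 18 implied reads in Nmu cells, against 1 to 2 in the controls. The effect was 7.59 for 24 h and 1.45 for the second time, so that Lcn2 counts as shared higher while the difference between times was -6.13 (adjusted p = 5.91e-07). The gene is also a granulocyte marker. The summed RPKM of 12 granulocyte markers was 221.5 and 7.75 in Nmu cells, against 2.40 to 4.93 in the controls, and Lcn2 alone made 219 and 1.98 RPKM of the sums in Nmu cells. S100a9, Ltf, Mpo and Retnlg were at 0 in all 6 libraries. Cxcr2 had 0.072 and 0.092 RPKM in Nmu cells, against 0.235 to 1.24 RPKM in the controls.

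Some targets of the antioxidant factor NRF2 rose at each time. Of 25 tested, 8 rose in the common effect (32.0%) and none fell, against 4.21% and 4.58% of all genes. At 24 h 11 rose and 4 fell, where 25.4% of all genes rose and 21.9% fell. Their median was then 0.09, close to 0.05 over all genes. At the second time 15 rose and none fell, where 12.8% of all genes rose and 19.8% fell. Their median was then 0.55, against -0.03 over all genes. Sqstm1, an autophagy receptor turned on by NRF2, had 342 and 56.7 RPKM in Nmu cells, against 41.3 and 42.5 RPKM in pCDH and Nwt cells at 24 h and 32.8 and 33.2 RPKM at the second time, with a difference between times of -2.24 (adjusted p = 0.000207). Srxn1, which encodes sulfiredoxin, had 24.7 and 19.0 RPKM in Nmu cells, against 5.22 and 5.14 RPKM in pCDH and Nwt cells at 24 h and 8.67 and 8.38 RPKM at the second time (difference 1.56 ± 0.22 SE, adjusted p = 0.0156). Txnrd1, which encodes thioredoxin reductase, had 30.3 and 27.6 RPKM in Nmu cells, against 10.1 and 9.11 RPKM in pCDH and Nwt cells at 24 h and 16.6 and 16.9 RPKM at the second time (difference 1.13 ± 0.21 SE, adjusted p = 0.0277). The adjusted p with 1 control left out was 0.0536 to 0.0843 for Srxn1 and 0.0761 to 0.115 for Txnrd1. Slc7a11, the cystine transporter, had 5.92 and 1.55 RPKM in Nmu cells, against 0.527 and 0.478 RPKM in pCDH and Nwt cells at 24 h and 0.720 and 0.780 RPKM at the second time, with a difference between times of -1.66 (adjusted p = 0.00038). Gadd45a, a growth arrest gene, had 30.3 and 2.29 RPKM in Nmu cells, against 1.33 and 1.87 RPKM in pCDH and Nwt cells at 24 h and 0.996 and 0.648 RPKM at the second time, with a difference between times of -2.74 (adjusted p = 0.000268). The genes named next rose at 24 h only. Snhg1, a host gene of small nucleolar RNAs, had 152 and 22.3 RPKM in Nmu cells, against 28.4 and 31.0 RPKM in pCDH and Nwt cells at 24 h and 30.5 and 31.7 RPKM at the second time, with a difference between times of -2.78 (adjusted p = 0.000141). Dgat2, an enzyme of triglyceride synthesis, had 22.8 and 5.47 RPKM in Nmu cells, against 3.29 and 3.08 RPKM in pCDH and Nwt cells at 24 h and 4.55 and 4.23 RPKM at the second time, with a difference between times of -2.24 (adjusted p = 0.000212). The non-coding 5430416N02Rik had 11.1 RPKM in Nmu cells at 24 h, against 1.01 and 2.57 RPKM in pCDH and Nwt cells, with a difference between times of -2.41 (adjusted p = 0.00212).

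Genes of DNA replication and ribosome production rose at 24 h as well. Of 24 genes of S phase 22 rose and 1 fell at 24 h, where 25.4% of all genes rose and 21.9% fell. At the second time 3 rose and 1 fell, where 12.8% of all genes rose and 19.8% fell. In the common effect 3 rose (12.5%), against 4.21% of all genes. Mcm2, a subunit of the replicative helicase, had 15.1 and 19.9 RPKM in Nmu cells, against 6.01 and 4.73 RPKM in pCDH and Nwt cells at 24 h and 18.4 and 18.7 RPKM at the second time. The Nmu value at 24 h thus lay between the controls of 24 h and those of the second time, and the difference between times was -1.25 (adjusted p = 0.00218). Uhrf1 and Rrm2 rose in the common effect by 0.72 and 0.67 (adjusted p = 0.0454 and 0.048, and 0.111 to 0.154 and 0.121 to 0.16 with 1 control left out). Of 23 genes of ribosome biogenesis 19 rose at 24 h and none fell, while 3 rose and 5 fell at the second time. Nop56, a nucleolar protein, had 177 and 98.1 RPKM in Nmu cells, against 49.0 and 54.7 RPKM in pCDH and Nwt cells at 24 h and 81.7 and 76.5 RPKM at the second time, with a difference between times of -1.44 (adjusted p = 0.000722). The median over the ribosomal protein genes was 0.04 at 24 h.

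Genes of glycolysis and of cholesterol synthesis fell at 24 h. Of 16 glycolysis enzymes, 15 fell and 1 rose at 24 h, with a median of -1.15, where 21.9% of all genes fell and 25.4% rose. At the second time 5 fell and 1 rose, with a median of -0.19, where 19.8% of all genes fell and 12.8% rose, and the difference between times was above 0 and passed for 14. Ldha, lactate dehydrogenase A, had 124 and 305 RPKM in Nmu cells, against 408 and 379 RPKM in pCDH and Nwt cells at 24 h and 389 and 391 RPKM at the second time. The effect was -1.65 for 24 h and -0.35 for the second time, with a difference between times of 1.30 (adjusted p = 0.000859). Pfkm, a phosphofructokinase, had 2.90 and 5.69 RPKM in Nmu cells, against 13.7 and 12.6 RPKM in pCDH and Nwt cells at 24 h and 9.10 and 8.31 RPKM at the second time, with a difference between times of 1.32 (adjusted p = 0.000957). Of 20 cholesterol synthesis genes, 16 fell and none rose at 24 h, with a median of -1.06. At the second time 4 fell and 1 rose, with a median of 0.12. Idi1, Pmvk and Stard4 fell in the common effect, with differences of -1.22, -1.07 and -0.93 (adjusted p = 0.0126, 0.0347 and 0.0226). With 1 control left out these p-values were 0.0522 to 0.0785, 0.0828 to 0.14 and 0.0708 to 0.106. Scd2, a fatty acid desaturase, had 40.1 and 189 RPKM in Nmu cells, against 257 and 245 RPKM in pCDH and Nwt cells at 24 h and 228 and 244 RPKM at the second time, with a difference between times of 2.29 (adjusted p = 0.000212).

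The genes that fell at 24 h only by most were mixed in function. Gsn, which encodes the actin-severing protein gelsolin, had 21.5 and 46.9 RPKM in Nmu cells, against 165 and 144 RPKM in pCDH and Nwt cells at 24 h and 49.9 and 51.8 RPKM at the second time. The Nmu value of the second time lay close to both controls of that time, and the difference between times was 2.68 (adjusted p = 0.000156). Rnase4 and Ang are ribonuclease genes that share a locus in mouse, so that their separate values are uncertain. Rnase4 had 2.98 RPKM in Nmu cells at 24 h, against 28.3 and 24.7 RPKM in pCDH and Nwt cells. Ang had 0.548 RPKM in Nmu cells at 24 h, against 9.93 and 6.57 RPKM in pCDH and Nwt cells. Their differences between times were 2.57 and 2.46 (adjusted p = 0.000212 and 0.000578). S100a4, a calcium-binding protein, had 26.5 and 149 RPKM in Nmu cells, against 181 and 148 RPKM in pCDH and Nwt cells at 24 h and 188 and 155 RPKM at the second time. The Nmu library of 24 h was the lowest of the 6, and the difference between times was 2.39 (adjusted p = 0.000354). Cst7, which encodes cystatin F, an inhibitor of cathepsins, had 2.23 and 7.96 RPKM in Nmu cells, against 19.7 and 20.1 RPKM in pCDH and Nwt cells at 24 h and 8.59 and 12.8 RPKM at the second time, with a difference between times of 2.34 (adjusted p = 0.000629). The steroidogenic enzyme gene Cyp11a1 and the genes Adc and BC028528 had differences between times of 2.56, 2.41 and 2.36 (adjusted p = 0.000215, 0.000156 and 0.00044). Over the 322 genes of this class the median RPKM was 2.74 in Nmu cells and 9.36 in controls at 24 h, and 6.81 and 7.32 at the second time.

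**Figure D3:**
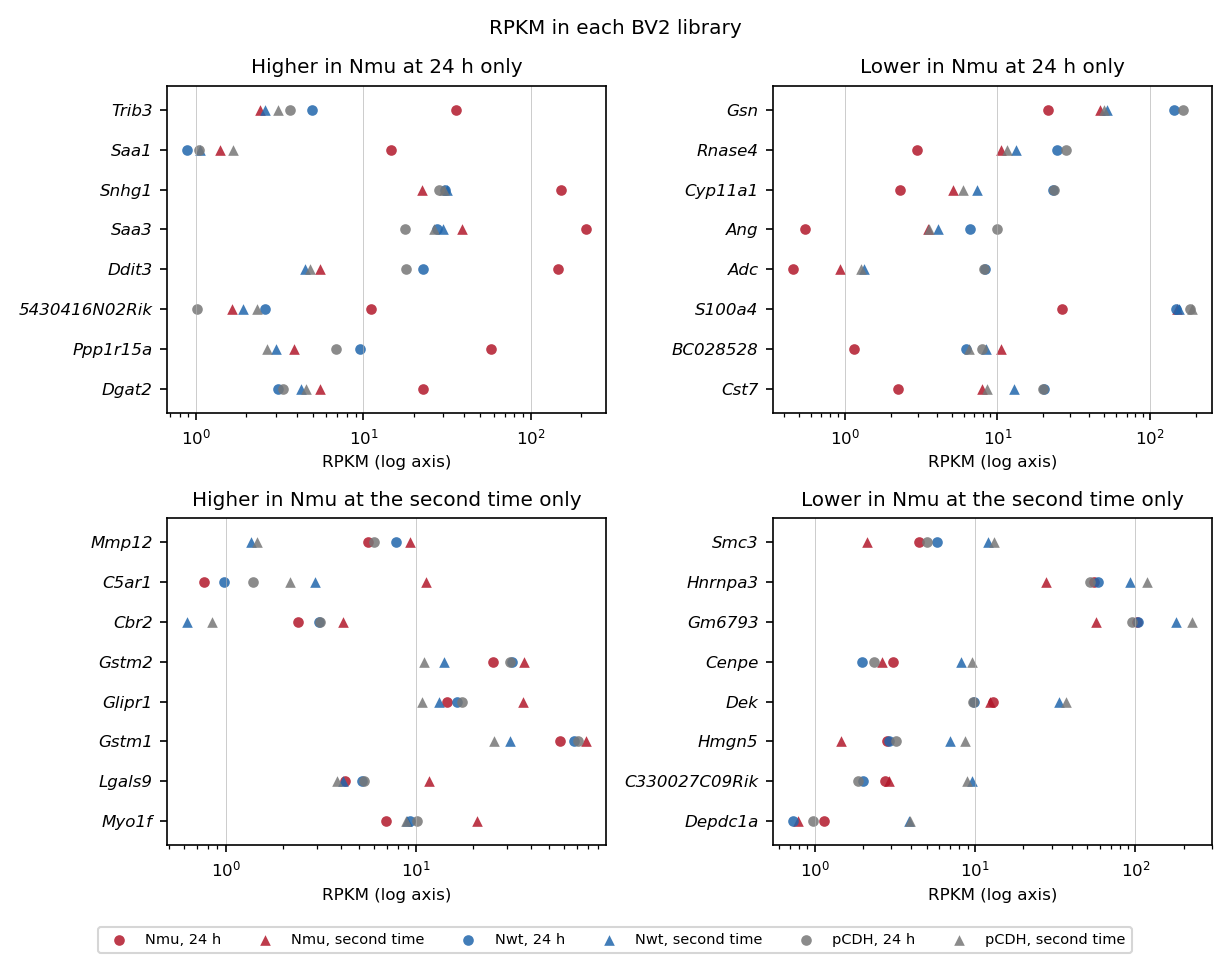
RPKM on a log axis in each of the 6 BV2 libraries for the 8 genes with the largest difference between times in each class of 1 time only, with Nmu in red, Nwt in blue and pCDH in grey, circles for 24 h and triangles for the second time. In the panels of 24 h the red circle lies apart from the other 5 points of its row.

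Rises at the second time only included a protease, a chemoattractant receptor and glutathione transferases. Mmp12, macrophage elastase, had 5.57 and 9.25 RPKM in Nmu cells, against 6.00 and 7.86 RPKM in pCDH and Nwt cells at 24 h and 1.45 and 1.36 RPKM at the second time. The controls were lower at the second time than at 24 h while Nmu cells were not, and the effect was -0.26 for 24 h and 2.09 for the second time. C5ar1, the receptor for complement fragment C5a, had 0.765 and 11.3 RPKM in Nmu cells, against 1.38 and 0.981 RPKM in pCDH and Nwt cells at 24 h and 2.16 and 2.93 RPKM at the second time. The Nmu library of the second time was the highest of the 6, and the difference between times was 2.10 (adjusted p = 0.00054). Gstm1 had 56.9 and 78.1 RPKM in Nmu cells, against 71.0 and 67.4 RPKM in pCDH and Nwt cells at 24 h and 25.7 and 31.3 RPKM at the second time. Gstm2 had 25.2 and 36.9 RPKM in Nmu cells, against 11.0 to 32.0 RPKM in the controls. Both encode glutathione transferases of a family with near-identical members, so their separate values are uncertain. Their differences between times were 1.71 and 1.82 (adjusted p = 0.000652 and 0.000602). Lgals9, which encodes galectin 9, had 11.7 RPKM in Nmu cells at the second time, against 3.85 and 4.10 RPKM in pCDH and Nwt cells, with a difference between times of 1.61 (adjusted p = 0.000401). Myo1f, a myosin of leukocytes, had 21.0 RPKM in Nmu cells at the second time, against 8.88 and 8.93 RPKM in pCDH and Nwt cells, with a difference between times of 1.57 (adjusted p = 0.000452). Cbr2 and Glipr1 had differences of 1.85 and 1.74 (adjusted p = 0.000354 and 0.000629). In the NADPH oxidase, Ncf4 and Cybb had differences between times of 1.09 and 0.98 (adjusted p = 0.00222 and 0.0155).

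Decreases at the second time only included genes of chromosomes and mitosis. Smc3, a subunit of cohesin, had 4.50 and 2.12 RPKM in Nmu cells, against 5.06 and 5.78 RPKM in pCDH and Nwt cells at 24 h and 13.1 and 12.1 RPKM at the second time. The controls had more of it at the second time than at 24 h and Nmu cells had less, so that the difference between times was -1.90 (adjusted p = 0.000354). Cenpe, a kinetochore motor, had 3.07 and 2.63 RPKM in Nmu cells, against 2.35 and 1.98 RPKM in pCDH and Nwt cells at 24 h and 9.61 and 8.22 RPKM at the second time. Here Nmu cells kept a like level at both times while both controls were higher at the second time, and the difference between times was -1.81 (adjusted p = 0.00047). Dek, a chromatin protein, had 12.9 and 12.3 RPKM in Nmu cells, against 9.72 and 9.86 RPKM in pCDH and Nwt cells at 24 h and 36.8 and 33.5 RPKM at the second time, with a difference between times of -1.80 (adjusted p = 0.000354). Hmgn5, C330027C09Rik and Depdc1a had differences between times of -1.75, -1.75 and -1.67 (adjusted p = 0.00066, 0.000354 and 0.00047). Hnrnpa3, an RNA-binding protein, had 27.8 RPKM in Nmu cells at the second time, against 118 and 91.9 RPKM in pCDH and Nwt cells, with a difference between times of -1.87 (adjusted p = 0.000713). Gm6793, whose reads may be shared with Hnrnpa3 so that both values are uncertain, had 56.6 RPKM in Nmu cells at the second time, against 225 and 179 RPKM in pCDH and Nwt cells, with a difference between times of -1.84 (adjusted p = 0.00066). Of 26 mitosis genes, 13 rose and none fell at 24 h, where 25.4% of all genes rose and 21.9% fell. At the second time 2 rose and 10 fell, where 12.8% of all genes rose and 19.8% fell. The difference between times was below 0 and passed for 16 of the 26. Mki67, a proliferation marker, had 4.26 and 10.5 RPKM in Nmu cells, against 7.06 and 5.22 RPKM in pCDH and Nwt cells at 24 h and 26.2 and 26.3 RPKM at the second time, with a difference between times of -0.82 (adjusted p = 0.02). Cenpf had 0.892 and 0.828 RPKM in Nmu cells, against 0.964 and 0.896 RPKM in pCDH and Nwt cells at 24 h and 4.61 and 3.80 RPKM at the second time, with a difference between times of -1.48 (adjusted p = 0.000811). Aurka and Ube2c rose in the common effect, by 0.76 and 0.84 (adjusted p = 0.0252 and 0.0286, and 0.0753 to 0.121 and 0.0878 to 0.123 with 1 control left out). Over the 143 genes of the class the median transcript length was 4832 bases, against 2649 bases over all genes tested, and the part of length in this class was not tested.

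Among the 491 genes that passed in opposite directions, 7 had an effect of at least 1 in size at both times, and the 5 with the largest difference between times are described. Glrx, which encodes glutaredoxin, had 2.31 and 28.3 RPKM in Nmu cells, against 7.62 and 6.66 RPKM in pCDH and Nwt cells at 24 h and 9.55 and 10.7 RPKM at the second time. The 2 Nmu libraries were the lowest and the highest of the 6, and the effect was -1.29 for 24 h and 1.40 for the second time. Hells, a chromatin remodeller of replicating cells, had 9.95 and 8.40 RPKM in Nmu cells, against 3.72 and 3.27 RPKM in pCDH and Nwt cells at 24 h and 17.7 and 17.9 RPKM at the second time, with effects of 1.29 for 24 h and -1.0 for the second time. Ncl, which encodes nucleolin, had 85.8 and 37.1 RPKM in Nmu cells, against 36.7 and 43.4 RPKM in pCDH and Nwt cells at 24 h and 95.1 and 78.3 RPKM at the second time, with effects of 1.08 for 24 h and -1.20 for the second time. Cyb5, which encodes cytochrome b5, had effects of -1.15 for 24 h and 1.1 for the second time, and Asb11 had effects of -1.09 for 24 h and 1.15 for the second time.

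**Figure D4:**
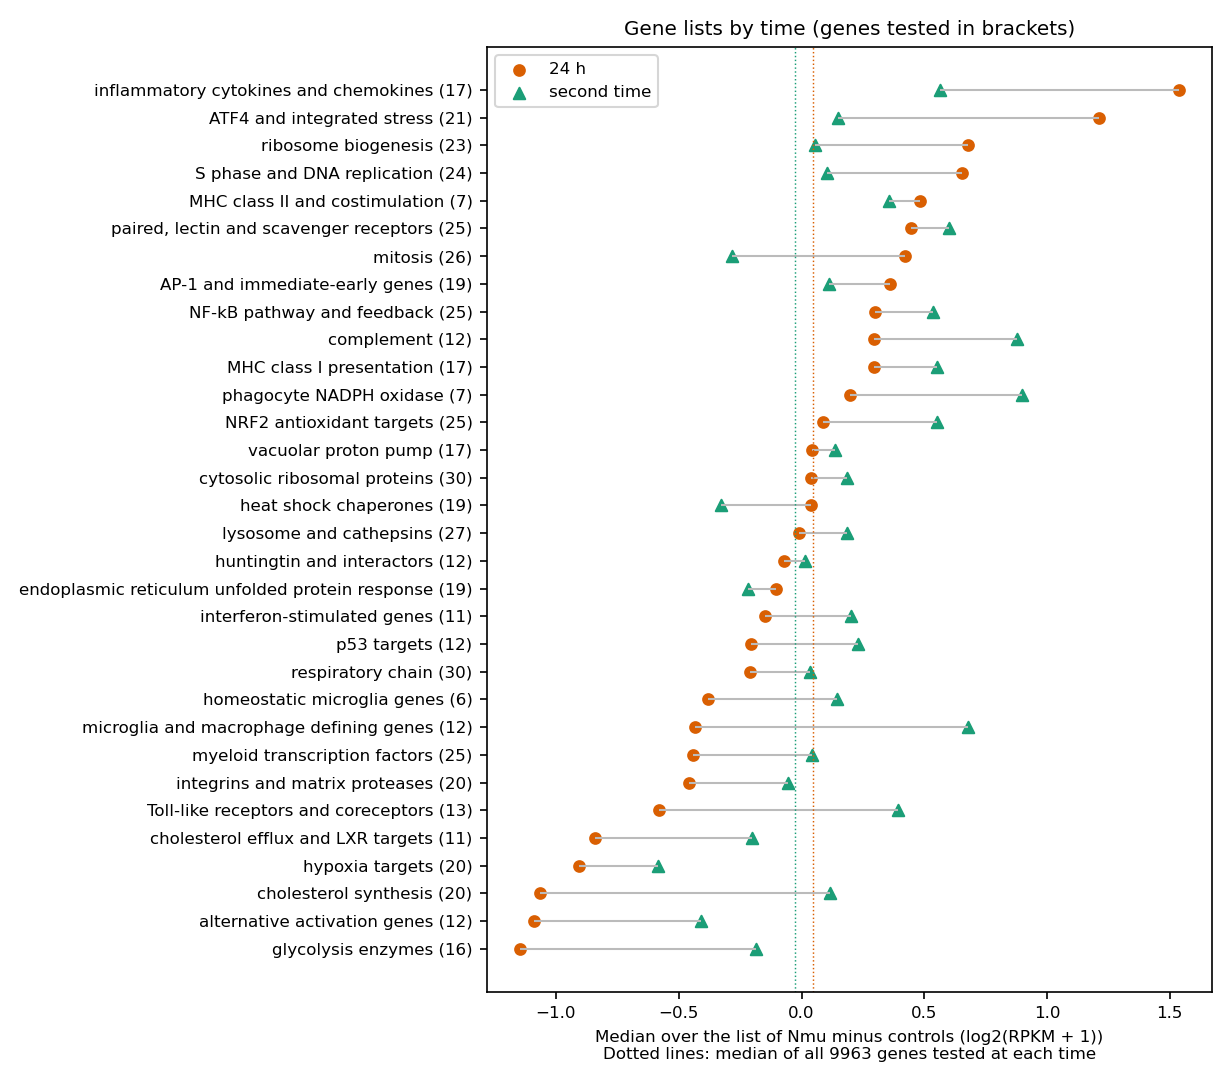
Median over each gene list of Nmu minus controls on the log2(RPKM + 1) scale at 24 h (circles) and at the second time (triangles), for lists with at least 5 genes tested. Cytokines and integrated stress genes lie highest at 24 h, with medians of 1.54 and 1.21, and glycolysis lies lowest at -1.15. The dotted lines mark the median of all genes.

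In several lists few or no genes passed in the common effect, against 4.21% of all genes that rose and 4.58% that fell. None of 30 ribosomal protein genes passed, with a median difference of 0.08, none of 19 heat shock chaperones, with a median of -0.14, and none of 12 huntingtin interactors, with a median of -0.08. For the chaperones that was the sum of unlike times for some members. Hspa8 had 135 and 593 RPKM in Nmu cells, against 397 and 405 RPKM in pCDH and Nwt cells at 24 h and 484 and 494 RPKM at the second time, with a difference between times of 1.84 (adjusted p = 0.000298). Hsp90aa1 had 136 and 147 RPKM in Nmu cells, against 129 and 136 RPKM in pCDH and Nwt cells at 24 h and 311 and 305 RPKM at the second time, with a difference between times of -1.10 (adjusted p = 0.00159). Of 19 genes of the unfolded protein response 2 fell, Edem1 and Pdia6, with differences of -1.37 and -0.76 (adjusted p = 0.0213 and 0.0204, and 0.0537 to 0.102 and 0.079 to 0.106 with 1 control left out). Of 11 interferon-stimulated genes 1 rose, Oas1a, with 6.28 and 6.92 RPKM in Nmu cells, against 3.74 to 4.50 RPKM in the controls (difference 0.58 ± 0.12 SE, adjusted p = 0.0401, and 0.104 to 0.156 as adjusted p with 1 control left out). Of 30 respiratory chain genes 1 rose. Of 12 targets of p53, 1 rose and 1 fell: Fas, a death receptor, had 3.16 and 2.02 RPKM in Nmu cells, against 0.0540 to 0.515 RPKM in the controls (difference 1.44 ± 0.13 SE, adjusted p = 0.00508), and Trp53inp1 had 3.00 and 1.53 RPKM in Nmu cells, against 3.14 to 6.44 RPKM in the controls (difference -0.76 ± 0.12 SE, adjusted p = 0.02, and 0.0686 to 0.106 as adjusted p with 1 control left out). The call for Fas held with any 1 control left out.

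Of 12 genes that mark microglia and macrophages, 2 rose (16.7%) and 1 fell (8.33%) in the common effect, against 4.21% and 4.58% of all genes. At 24 h 3 rose and 6 fell, where 25.4% of all genes rose and 21.9% fell. At the second time 10 rose and 1 fell, where 12.8% of all genes rose and 19.8% fell, and the median was 0.68. Aif1, which encodes IBA1, had 4.80 and 7.2 RPKM in Nmu cells, against 1.98 and 0.878 RPKM in pCDH and Nwt cells at 24 h and 1.65 and 1.92 RPKM at the second time (difference 1.43 ± 0.20 SE, adjusted p = 0.0155, and 0.0213 to 0.0694 as adjusted p with 1 control left out). Ptprc, which encodes CD45, had 10.1 and 7.98 RPKM in Nmu cells, against 14.6 and 16.3 RPKM in pCDH and Nwt cells at 24 h and 13.2 and 14.7 RPKM at the second time (difference -0.65 ± 0.12 SE, adjusted p = 0.0312, and 0.0859 to 0.142 as adjusted p then). Fewer cells of a kind and less RNA per cell cannot be told apart in such bulk libraries.

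Chromatin was measured by ChIP-seq in the same 3 lines, with 1 library per antibody and construct, labelled 24 h. The mark H3K4me2 lies at active and poised promoters and enhancers. The authors called peaks separately in each library, and the mm9 peaks were matched to genes within 10 kb of the transcript start, without a test since there is 1 library each. For H3K4me2 there were 42514 peaks in Nmu cells, against 39445 in Nwt and 39503 in pCDH cells, at 5364738 tags in Nmu cells, 5255834 tags in Nwt cells and 5393592 tags in pCDH cells. Of the Nmu peaks 5416 overlapped no control peak, and 2589 peaks were in both controls and not in Nmu cells. A peak of Nmu cells alone was near 26 of 86 shared higher genes (30.2%), 3 of 60 shared lower genes (5.0%) and 1024 of 9963 genes tested (10.3%). A peak of both controls and not Nmu cells was near 5 of 86 shared higher genes (5.8%), 10 of 60 shared lower genes (16.7%) and 536 of all genes (5.4%). Within 2 kb of the start, peaks of Nmu cells alone were near 11.6% of shared higher, 0% of shared lower and 1.28% of all genes, and within 50 kb near 55.8%, 26.7% and 35.4%. Of the 12 genes with the largest increase, Marco, Pilrb1, Pilrb2, Ebi3 and Clec4n had a peak of Nmu cells alone within 10 kb, and Irg1 had a peak of both controls that Nmu cells lacked. Of the 12 with the largest decrease none had a peak of Nmu cells alone, while Arg1, Atp6v0d2, F13a1 and Fabp4 had a peak of both controls that Nmu cells lacked.

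Peaks of the 3 transcription factors were counted in the same way. PU.1 peaks of Nmu cells alone were near 32.6% of shared higher, 33.3% of shared lower and 23.7% of all genes. PU.1 peaks of both controls and not Nmu cells were near 14.0%, 26.7% and 12.1% of these. For C/EBPβ the shares with a peak of Nmu cells alone were 24.4%, 30.0% and 19.9%. For C/EBPα they were 4.7%, 6.7% and 4.2%, and C/EBPα peaks of both controls that Nmu cells lacked were near 27.9% of shared higher genes, 13.3% of shared lower and 10.0% of all genes. Among the 12 genes with the largest increase such peaks were near Irg1, Il1a, Nfkbiz and C3. Il1a also had a C/EBPα peak of Nmu cells alone. The C/EBPα library of Nmu cells had 9117 peaks at 14712815 tags, against 19732 at 24088391 tags in Nwt and 11645 at 16331418 tags in pCDH cells. Depth and the number of peaks thus differed between constructs, and their part in these shares was not tested.

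**Figure D5:**
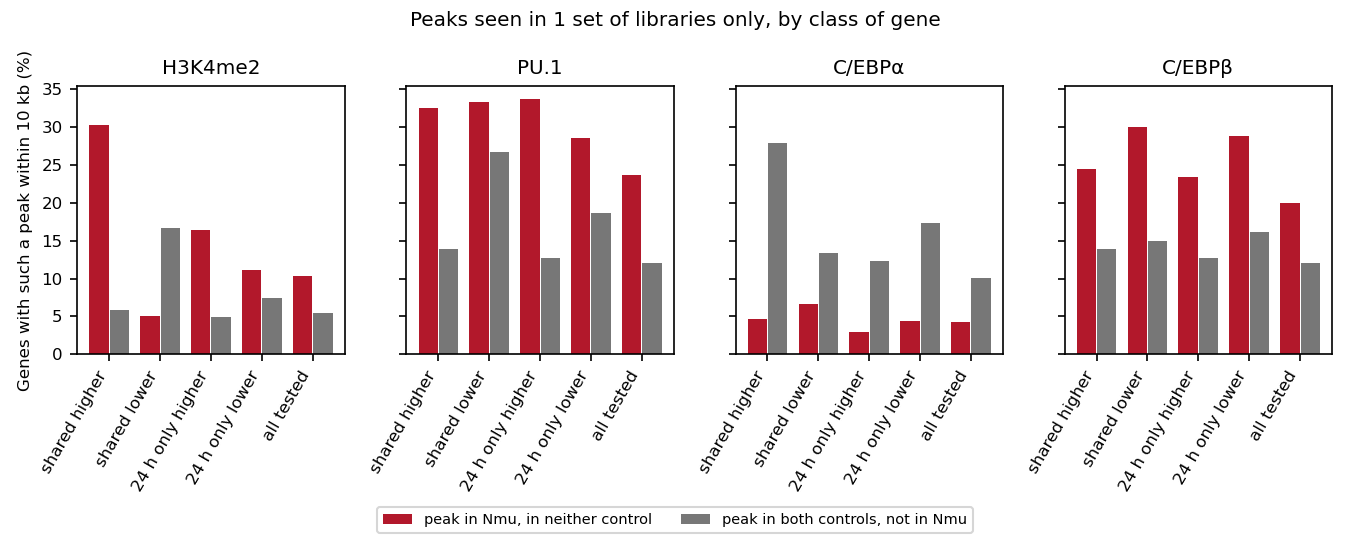
Share of genes (%) with a peak within 10 kb of the transcript start that was called in Nmu cells and in neither control (red), or in both controls and not in Nmu cells (grey), for the mark H3K4me2 and the factors PU.1, C/EBPβ and C/EBPα in 4 classes of genes and in all genes tested. For H3K4me2 the red bar reaches 30.2% in shared higher genes and 5.0% in shared lower genes, against 10.3% of all genes.

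The same genes were also measured in primary microglia and bone marrow derived macrophages of Q175/175 and Q7/7 mice, which differ in the glutamine tract of huntingtin. There is 1 library each, so no test is given. Of the 86 shared higher genes 61 reached an RPKM of 1 in microglia, and their median log2 difference, Q175/175 minus Q7/7, was -0.0003, against -0.08 for all genes. Of these 61 none was 2-fold higher and 2 were 2-fold lower. For shared lower genes it was -0.03 over 26 genes. In macrophages the medians were -0.03 over 72 shared higher genes and 0.22 over 42 shared lower genes, against 0.21 over all genes. Of the genes that rose at 24 h only in Nmu cells, 220 were expressed in macrophages. Of these 12 were 2-fold higher and 2 were 2-fold lower in Q175/175 cells, against 65 and 26 of 8927 genes in all. In microglia 181 genes of that class were expressed. Of those 0 were 2-fold higher and 1 was 2-fold lower, against 5 and 14 of 8256 genes in all. Marco had 0.124 RPKM in Q175/175 microglia, against 0.134 RPKM in Q7/7 microglia, and 2.36 RPKM in Q175/175 macrophages, against 1.61 RPKM in Q7/7 macrophages. Spi1 had 30.7 RPKM in Q175/175 microglia, against 31.2 RPKM in Q7/7 microglia, and 45.0 RPKM in Q175/175 macrophages, against 23.4 RPKM in Q7/7 macrophages.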

How the data were processed

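Poly(A) RNA of BV2 cells was sequenced and the authors deposited 1 table of RPKM values per transcript, on mm9, with STAR 2.0.3e and HOMER named in the submitters' processing notes. Implied depths came from the steps of the lowest values. From the table, 1 transcript per gene symbol was kept (highest mean RPKM, 200 bases or more), and the 9963 genes that reached an RPKM of 1 in 2 BV2 libraries were tested on log2(RPKM + 1) with limma 3.58.1 (R 4.3.3), with no count model. The 12773 other symbols of that length stayed below that level and were not tested. Filtering on RPKM admits a gene through the group where it is high: 68 tested genes reached an RPKM of 1 in both Nmu libraries alone, 43 of which rose, and 311 in controls alone, 78 of which fell. HOMER peak lists, per the file headers, hold peaks called in each library against an input named ThioMac, which is not a BV2 library by its name, and the deposited score column, which is 1 for every peak, was not used. Peaks count as shared where they overlap by 1 base. Promoters matched 8015 tested genes (7492 by symbol).

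Members, gene lists and tests were chosen with earlier results of these data known. The genes named are the 12 called with the largest common change per direction, 8 per direction for each class of 1 time by the difference between times, 5 of opposite direction, up to 4 per list and Spi1, Cebpa, Cebpb, Cebpd, Irf8 and Htt. A few members outside that rule were chosen after their values were seen (Tnf, Il1b, Slc2a1, Clec10a, Cd36, Car12, Lcn2 among them). The fits were tested on simulated data.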

Additional observations from a re-analysis of the deposited data

Results flagged for a closer look

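Among 80 genes examined for their common difference, 41 had an effect of Nmu cells against the controls that differed between both times. The test of that difference (limma, adjusted p under 0.05) was passed by 38.4% of all genes tested. Many of the 80 were named for the size of their change. In 35 of the 41 the effect was larger at 24 h. Values are the effect at the second time minus that at 24 h, on the log2(RPKM + 1) scale, and each effect rests on 1 Nmu library.

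Among genes higher in Nmu cells, the effect was larger at 24 h, with values of -1.24 for Marco, -1.97 for Vnn3, -1.52 for Nfkbiz, -0.93 for Cebpb, -1.08 for Cebpd, -0.49 for Irak3, -0.98 for Ccl3, -1.48 for Cd14, -1.66 for Ets2, -0.84 for Atf3, -0.99 for Srxn1, -0.87 for Txnrd1, -1.58 for Il1rn, -1.60 for Dusp1 and -0.55 for Ube2c. It was larger at the second time, with values of 1.90 for Irg1, 1.06 for C3, 2.27 for Cd52, 0.95 for C1qb and 0.62 for Lyz2.

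Among genes lower in Nmu cells, a positive value means a smaller decrease at the second time. It was 4.57 for Arg1, 1.75 for Ankrd37, 0.74 for Bnip3, 1.41 for Abcd2, 2.50 for Selenbp1, 1.27 for Atp6v0d2, 2.55 for Selenbp2, 1.74 for F13a1, 1.81 for 2310002L09Rik, 1.65 for Hspb7, 1.82 for Tcp11l2, 2.13 for Fabp4, 0.51 for Cebpa, 0.74 for Irf8, 1.17 for Tlr7, 0.99 for Mmp14, 0.98 for Edem1, 0.53 for Idi1, 0.90 for Pmvk and 1.81 for Clec10a. The decrease was larger at the second time for Tlr4, with a value of -0.51. Cebpa and Irf8 are among these although their common difference did not pass.

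In 1 of the 80 genes a control library stood apart from the other controls. Ets2 had 2.79 RPKM in pCDH cells at 24 h, against 3.06 to 3.12 RPKM in the other 3 controls, a gap of 0.835 of the range of all 4. Chance gives such a gap in about 1 of 20 groups, and both Nmu values of Ets2, 43.8 and 13.9 RPKM, lay far above all controls.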

How the results depend on the processing

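No gene called in the common effect changed sign under any alternative, but the counts moved. With an Nmu library left out the sign is that of the other time, and the call itself favours the same sign at both times. Without a filter on low values (22736 genes tested) 128 genes rose and 62 fell in the common effect, 1050 and 637 at 24 h and 486 and 287 at the second time, the difference between times passed for 541 above 0 and 689 below, and the classes held 35 shared higher, 14 shared lower, 49 and 66 at 24 h only and 8 and 27 at the second time only. With a pseudocount of 5, 296 genes fell in the common effect, and the classes held 42 shared higher, 7 shared lower, 83 and 119 at 24 h only and 21 and 20 at the second time only. With a pseudocount of 0.5 they held 94 shared lower and 247 lower at the second time only. With an RPKM of 5 in 2 libraries 276 genes fell in the common effect and 1158 at the second time, and 33 rose at the second time only. Quantile normalization left 95 lower at the second time only. A size of at least 0.5 in place of 1 gave classes of 353, 386, 893, 838, 241 and 679 genes in the order above.

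In the common effect 92 genes rose and 84 fell with no time block, 158 and 152 with pCDH as the controls and 110 and 121 with Nwt. Leaving out 1 library gave 47 to 2534 that rose and 20 to 2179 that fell. With a control left out the ranges were 85 to 90 shared higher, 58 to 66 shared lower, 238 to 265 and 305 to 365 at 24 h only, and 44 to 70 and 132 to 162 at the second time only. Of the genes that rise or fall, the share that rose was 47.9%, against 56.5% with a pseudocount of 5, 67.4% without a filter and 63.7% to 71.3% with a control left out. Of the 12 genes named for the largest decrease, 8 passed with a pseudocount of 5, 7 with no time block and 4 with any 1 control left out. Of 76 genes named for a common change that passed, 30 passed whichever control was left out. For genes named for a difference between times, leaving out a control keeps the single Nmu library of each time. It therefore cannot check how far that difference depends on the Nmu libraries. No paired analysis was possible because the labels give the libraries no replicate numbers beyond their times, and time is already a term.

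The main limits are that no separate transductions of a construct are named, 1 Nmu library per time, and controls of 2 kinds in place of replicates. The spread behind p-values of the common effect is that between pCDH and Nwt libraries and that of the Nmu effect between times. For effects at each time and their difference it is that between pCDH and Nwt libraries alone. RPKM values were used as deposited, without read counts, and low genes rest on few reads.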
